A study of Mus musculus with 8 samples.

Results

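The mRNAs of the telomere-protecting shelterin complex and of the telomerase catalytic subunit were followed in mouse embryonic fibroblasts (MEFs) exposed to the G-quadruplex (G4) ligand RHPS4. The members were chosen by name as Terf1, Terf2, Terf2ip, Tinf2, Acd, Pot1a, Pot1b and Tert, which are 8 of the 24460 genes counted. All 8 were found and all 8 were among the 14296 genes that passed the filter on low counts. The cells were wild-type MEFs in all groups, grown below confluence. Their medium held no RHPS4 in 3 libraries (0 µM), 2 µM in another 3 and 10 µM in the last 2. The labels do not give the exposure time of these libraries, the strain or age of the embryos, how many embryos the cells came from, or whether the libraries of a group came from separate cultures, so that p values measure the spread between these libraries, which may be technical. The libraries were strand-specific and were made from total RNA after removal of nuclear ribosomal RNA, so that RNAs without a poly(A) tail were kept.

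Vertebrate telomeres end in repeats of TTAGGG whose G-rich strand can fold into G4 structures, and RHPS4 is known as a ligand of telomeric G4. Shelterin coats these repeats and keeps chromosome ends from being read as broken DNA. TRF1 (Terf1) and TRF2 (Terf2) bind the double-stranded repeats, RAP1 (Terf2ip) rides on TRF2, TIN2 (Tinf2) and TPP1 (Acd) link the parts, and POT1 covers the single-stranded end, in the mouse as a pair of proteins from separate genes, Pot1a and Pot1b. Telomerase, which adds repeats, is built from the reverse transcriptase TERT, the template RNA (Terc) and H/ACA proteins that stabilize that RNA, and mouse fibroblasts keep low telomerase activity. The comparison of doses asked whether the mRNAs of these proteins differ when the ligand is present.

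The libraries held between 10455965 and 26688121 counts, so that 3 counts, taken as the detection floor, stood for 0.287 CPM (counts scaled to library size) in the smallest and 0.112 CPM in the largest. Counts were scaled with TMM, a method that corrects for RNA composition, and levels are given as TMM-scaled CPM. mtDNA features took 13.2 to 14.4% of the counts at 0 µM, 7.40 to 8.26% at 2 µM and 5.33 to 6.32% at 10 µM, and the TMM factors ran from 0.923 to 1.10. The first 0 µM library stood furthest from the others of its group. All 10 fibroblast markers examined were detected, with a summed level of 9255 to 11270 CPM, whereas the summed markers of pluripotent, epithelial, endothelial, immune and muscle cells did not exceed 9.59 CPM in any library. Of the fibroblast markers, Lum (group means of 0.695 to 0.996 CPM) and Thy1 (5.68 to 7.25 CPM) were low. The immune marker Cd68 had group means of 5.56 to 5.90 CPM. In bulk RNA, fewer cells of a type and less RNA per cell cannot be told apart.

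None of the 8 genes was called differentially expressed (DEG, adjusted p under 0.01 and fold change over 1.5) in any comparison of doses, by edgeR or by DESeq2. Over all genes tested the share of DEGs was 0.497% for 2 against 0 µM (0.119% higher and 0.378% lower), 3.09% for 10 against 0 µM (1.95% and 1.14%) and 5.51% for 10 against 2 µM (3.92% and 1.59%), so that 0 of 8 stands close to the background. At an adjusted p under 0.05 with no minimum fold change the count was still 0 in each comparison, where 4.16%, 13.9% and 23.4% of all genes passed. At an unadjusted p under 0.05 the counts were 0 for 2 against 0 µM, 2 for 10 against 0 µM (Pot1a and Tinf2) and 1 for 10 against 2 µM (Pot1a). At least 3027, 4153 and 5167 of the 14296 genes tested passed this rule in these comparisons, in the same order (edgeR). The counts of 0, 2 and 1 of 8 therefore did not exceed the share of all genes. The lowest adjusted p of any of the 8 genes was 0.314, 0.128 and 0.118, respectively (edgeR, Benjamini-Hochberg over all genes tested).

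The intervals say how large a change the libraries leave room for. For 6 of the 8 genes at 2 µM and 6 of the 8 at 10 µM, the 95% confidence interval of the log2 fold change against 0 µM lay inside ±0.58, the log2 of 1.5. The genes whose interval crossed that line were Terf1 and Tert at both doses, and between 10 and 2 µM Tert alone. Over the 8 genes the median log2 fold change was −0.08 for 2 against 0 µM, −0.06 for 10 against 0 µM and 0.08 for 10 against 2 µM, beside medians over all genes tested of −0.01, 0.02 and 0.03. Groups of libraries did not overlap for 1, 3 and 2 of the 8 genes, while 25.7%, 42.9% and 51.8% of all genes did not overlap.

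**Figure D1:**
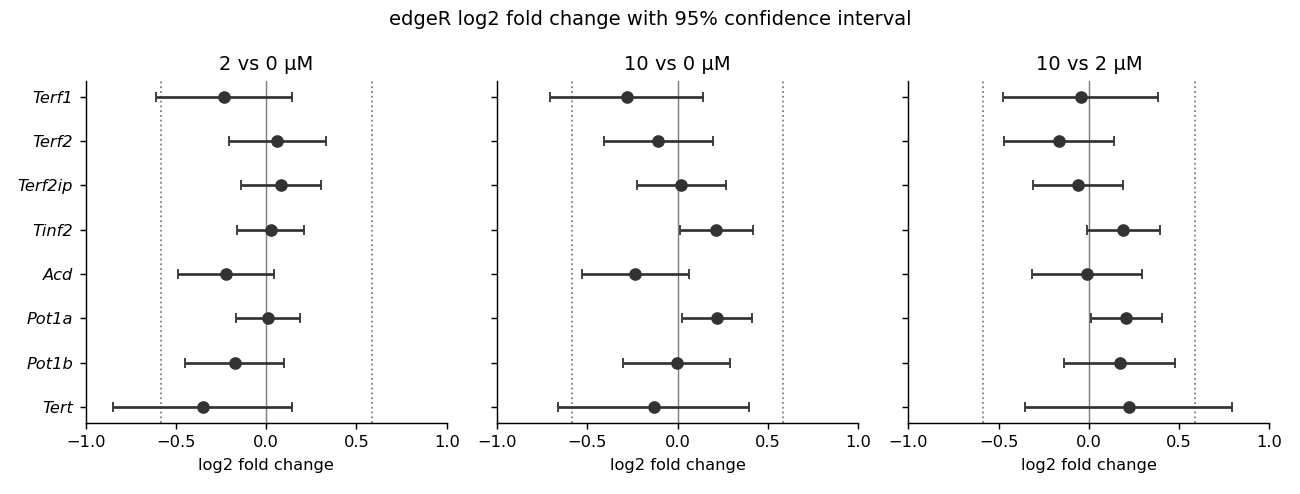
Log2 fold change (x axis) of the 8 genes (y axis) for the 3 comparisons of RHPS4 doses, with points for the edgeR estimate, bars for its 95% confidence interval and dotted lines at a 1.5-fold change. Every point lies between the dotted lines, and Terf1 and Tert have the widest bars.

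Per length of exon, the shelterin mRNAs of untreated MEFs lay within a narrow range, apart from Pot1b, and Tert was far below them. With the union of all annotated exons as the length, Tinf2 was at 6.69 ± 0.378 CPM per kb (SD, n = 3), Terf2ip at 6.17 ± 0.756, Acd at 5.60 ± 0.50, Terf2 at 5.40 ± 0.654, Pot1a at 4.80 ± 0.357 and Terf1 at 4.08 ± 0.750. Each of these overlapped its neighbour in the order, so that neighbours are not resolved by 3 libraries. Genes further apart could separate. Every Tinf2 library (at least 6.44 CPM per kb) lay above every Acd library (at most 6.12). Every Acd library (at least 5.13) lay above every Terf1 library (at most 4.92). Pot1b followed at 2.27 ± 0.251 CPM per kb, below Terf1 in every library, and Tert came last at 0.378 ± 0.00368 CPM per kb. The first 2 and the last 3 places held at 2 and at 10 µM. The place of Pot1a depended on the length used. It was the fifth with the union of exons, 8.67 kb, and the first, at 12.7 ± 0.946 CPM per kb and above every other gene in every library, with the longest annotated transcript, 3.27 kb.

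**Figure D2:**
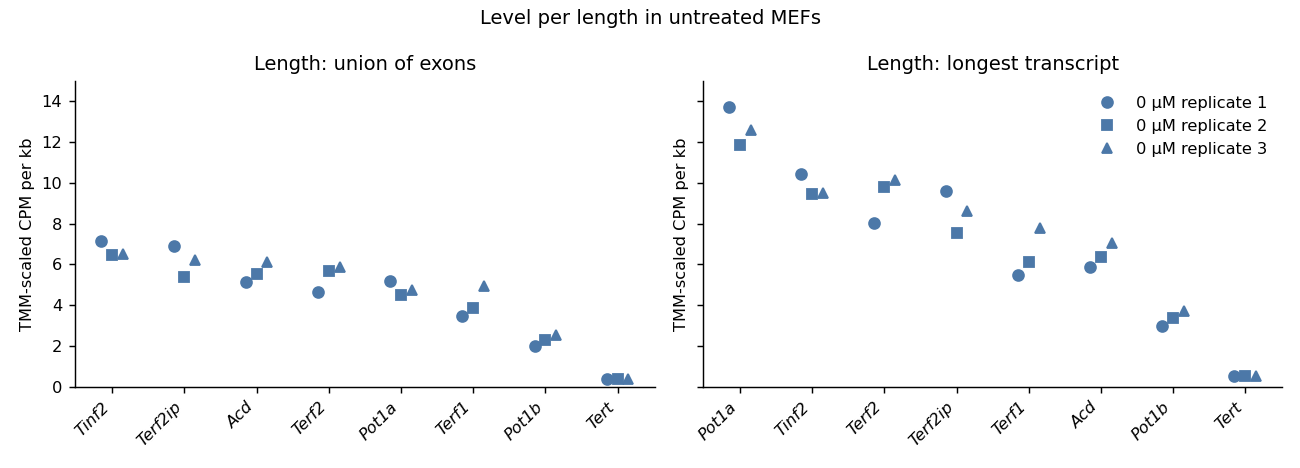
TMM-scaled CPM per kb (y axis) of the 8 genes (x axis, in falling order of the mean) in each of the 3 untreated libraries, with the union of exons (left) or the longest annotated transcript (right) as gene length. Pot1b and Tert are the lowest in both panels, and Pot1a moves from the fifth place to the first.

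TRF1 and TRF2 bind the double-stranded repeat, and neither of their mRNAs differed beyond the threshold at either dose. Terf1 (chr1:15805646-15844052, plus strand, GRCm38) was at 16.0, 17.8 and 22.7 CPM at 0 µM, 13.8, 13.4 and 20.8 CPM at 2 µM, and 15.6 and 15.8 CPM at 10 µM. The 2 libraries at 10 µM lay just under the lowest untreated one, and the third libraries at 0 and 2 µM lay well above the others. The log2 fold change was −0.24 (SE 0.172, 95% interval −0.61 to 0.14, adjusted p = 0.456) at 2 µM and −0.28 (SE 0.192, interval −0.70 to 0.14, adjusted p = 0.359) at 10 µM (edgeR). With 1 library left out, the value at 2 µM ran from −0.49 (without the third 2 µM library) to −0.07 (without the third 0 µM library), and the value at 10 µM was −0.11 without the third 0 µM library. Terf2 (chr8:107069400-107096547, minus strand) was at 21.4, 26.1 and 27.0 CPM at 0 µM, 25.3, 25.8 and 27.2 CPM at 2 µM, and 26.8 and 19.6 CPM at 10 µM. These ranges overlapped at all doses, with the lowest value in one of the 10 µM libraries. Its log2 fold change was 0.06 (SE 0.123, adjusted p = 0.818) at 2 µM and −0.11 (SE 0.138, adjusted p = 0.645) at 10 µM, turning to 0.11 when the libraries were scaled by their total counts alone.

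Scaling drops out of a ratio taken within a library. On the log2 scale, Terf1 over Terf2 counts gave −0.41 ± 0.150 at 0 µM (SD, n = 3), −0.73 ± 0.305 at 2 µM (n = 3) and −0.54 ± 0.329 at 10 µM (n = 2). The difference was −0.33 at 2 µM (two-sided exact permutation p = 0.3) and −0.14 at 10 µM (exact p = 0.6), the groups overlapped, and the value at 10 µM changed sign to 0.09 without the first 10 µM library. With 3 against 3 libraries the smallest p is 0.1, and with 3 against 2 it is 0.2, so that such a ratio cannot pass 0.05 here.

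RAP1 is held at telomeres by TRF2. Its mRNA, Terf2ip (chr8:112011398-112020528, plus strand), was at 34.3, 26.8 and 30.8 CPM at 0 µM, 33.1, 33.0 and 30.6 CPM at 2 µM, and 28.9 and 32.8 CPM at 10 µM. All treated libraries lay inside the untreated range. Its log2 fold change was 0.08 (SE 0.101, interval −0.14 to 0.30, adjusted p = 0.688) at 2 µM and 0.02 (SE 0.112, interval −0.23 to 0.27, adjusted p = 0.926) at 10 µM (edgeR).

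TIN2 is the hub that holds TRF1, TRF2 and TPP1 together. Tinf2 (chr14:55674689-55681820, minus strand) was at 35.2, 31.8 and 32.1 CPM at 0 µM, 33.3, 35.5 and 31.7 CPM at 2 µM, and 36.3 and 40.2 CPM at 10 µM. Both 10 µM libraries were above every other library, while the 0 and 2 µM libraries overlapped. At 10 µM its log2 fold change against 0 µM was 0.22 (SE 0.0925, interval 0.01 to 0.42, adjusted p = 0.149, edgeR), a 1.16-fold difference that did not pass the correction over all genes, and it was 0.11 without the second 10 µM library. Of the 75-base stretches in the Tinf2 exons, 23.1% also lie in Gmpr2, a gene of purine metabolism that overlaps Tinf2 by 4512 bases on the opposite strand. Gmpr2 itself went from a mean of 26.5 CPM at 0 µM to one of 30.7 CPM at 10 µM, which is 0.21 on the log2 scale (SE 0.117, adjusted p = 0.254, edgeR). The strand setting of the counting is not given in the sources used here, so whether reads of one gene entered the count of the other was not tested.

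TPP1, which recruits telomerase and carries POT1, is encoded by Acd (chr8:105695860-105701102, minus strand). Acd was at 18.6, 20.1 and 22.2 CPM at 0 µM, 17.8, 19.3 and 15.6 CPM at 2 µM, and 19.5 and 15.1 CPM at 10 µM. The treated libraries reached lower than the untreated ones but overlapped them. Acd differed on the log2 scale by −0.22 (SE 0.121, interval −0.49 to 0.04, adjusted p = 0.314) at 2 µM and −0.23 (SE 0.135, interval −0.53 to 0.06, adjusted p = 0.275) at 10 µM (edgeR). At 10 µM the value was −0.47 without the first 10 µM library and −0.0948 without the second, and at 2 µM it was −0.13 without the third 2 µM library. Acd shares 18.0% of its 75-base stretches with Carmil2 on the opposite strand, a gene listed as Rltpr in the counts, which had a mean level of only 1.25 to 1.51 CPM in the dose groups.

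**Figure D3:**
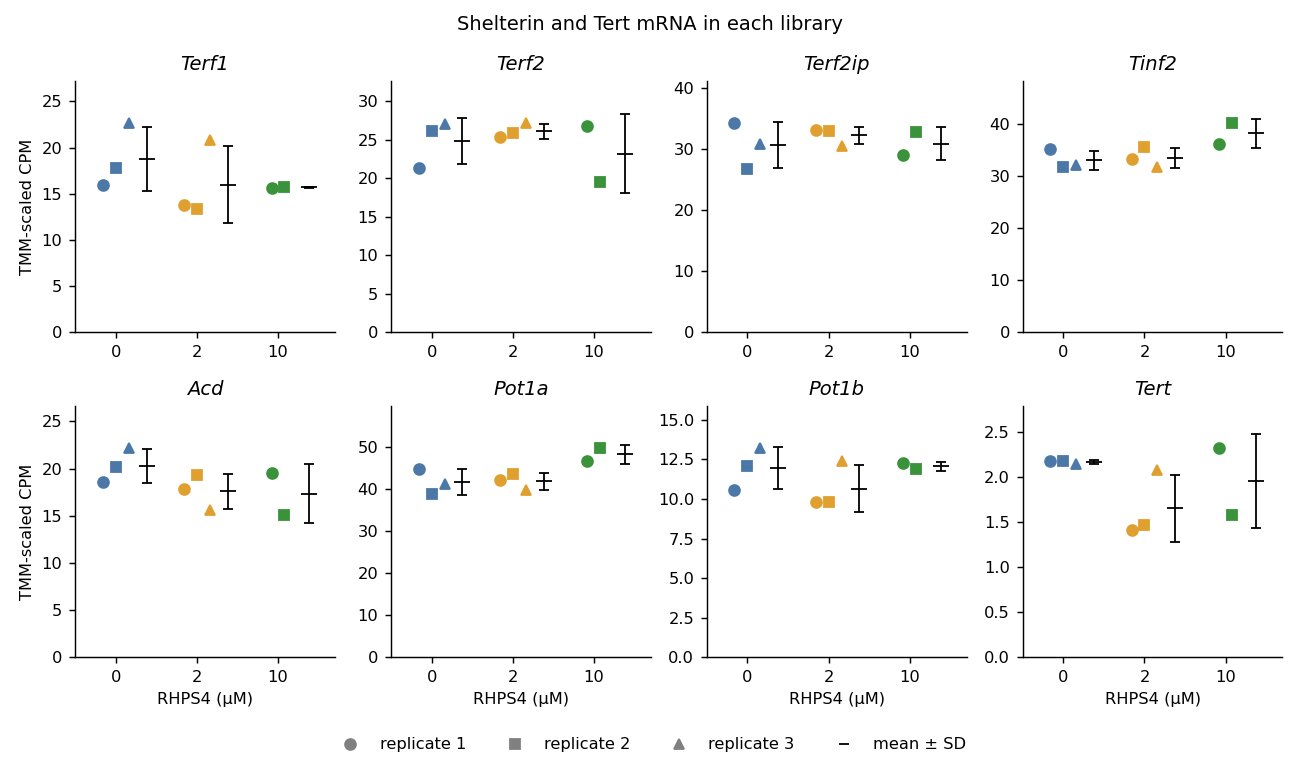
TMM-scaled CPM (y axis, from 0) of each gene by RHPS4 dose in µM (x axis), with a symbol for each library and bars for the mean ± SD of 3, 3 and 2 libraries. The 10 µM libraries of Pot1a and Tinf2 sit above all others, at 46.8 to 49.9 and 36.3 to 40.2 CPM, those of Tert lie on either side of the untreated ones, at 2.32 and 1.58 CPM, and those of Terf1 lie within the range of the 2 µM ones.

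The mouse pair of POT1 proteins binds the single-stranded repeat, with Pot1a known for holding back ATR signalling and Pot1b for limiting resection of the C-rich strand. Pot1a (chr6:25743737-25809246, minus strand) was at 44.9, 38.8 and 41.2 CPM at 0 µM, 42.1, 43.7 and 39.8 CPM at 2 µM, and 46.8 and 49.9 CPM at 10 µM. As for Tinf2, both 10 µM libraries were the highest of all 8. At 10 µM the log2 difference was 0.22 against 0 µM (SE 0.0889, interval 0.02 to 0.41, adjusted p = 0.128) and 0.21 against 2 µM (SE 0.0895, adjusted p = 0.118), neither of which passed the correction (edgeR), and without the second 10 µM library they were 0.14 and 0.12. At 2 µM it was 0.01 (SE 0.0808, interval −0.17 to 0.19).

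Pot1a and Tinf2 passed an adjusted p of 0.05 under 1 scaling. With total counts alone, which shifted the median of all genes to 0.23 at 10 µM, the log2 fold change against 0 µM was 0.44 for Pot1a (adjusted p = 0.00431) and 0.43 for Tinf2 (adjusted p = 0.00635), both still under 1.5-fold. With TMM computed on nuclear genes only, leaving out the mtDNA features, the values were 0.22 (adjusted p = 0.124) and 0.21 (adjusted p = 0.144).

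Pot1b (chr17:55651951-55712628, minus strand) was at 10.6, 12.1 and 13.2 CPM at 0 µM, 9.78, 9.78 and 12.4 CPM at 2 µM, and 12.3 and 11.9 CPM at 10 µM. The 10 µM libraries lay inside the untreated range, and the first and second 2 µM libraries were the lowest. Its log2 fold change was −0.18 (SE 0.125, interval −0.45 to 0.10, adjusted p = 0.445) at 2 µM and −0.006 (SE 0.136, interval −0.30 to 0.29, adjusted p = 0.982) at 10 µM (edgeR), the latter turning to 0.21 with total counts alone. No 75-base stretch was shared between Pot1a and Pot1b, so that reads of this length can be told apart between the paralogs.

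A RefSeq promoter window (250 bases before to 50 after a start, GRCm38.p6) was available for 7 of the genes. They had 9 windows, since Terf2 and Pot1b have 2 annotated starts each. Among these genes, only Pot1b held a canonical G4 pattern, the same one in both of its windows. The search asked for at least 4 runs of 3 or more G, split by loops of 1 to 7 bases of any kind, G included, on both strands. Over all 32851 promoter windows 18.6% held one. In Pot1b the pattern lies on the template strand, 137 to 167 bases before the first start and 149 to 179 bases before the second, and is shown because RHPS4 is a G4 ligand. It consists of GGGG, then ACTAGC, then a single unbroken run of G, which the search counted as the other runs and loops. It is printed in capitals within 10 flanking bases on each side, from chr17:55712763-55712813, plus strand.

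Pot1b G4 pattern: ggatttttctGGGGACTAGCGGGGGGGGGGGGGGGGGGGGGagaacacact

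Both Pot1b windows also held 1 copy of the telomere repeat TTAGGG, which 10.6% of all windows hold. The copy lies on the coding strand, 120 to 125 bases before the first start. It is shown in capitals, from chr17:55712741-55712776, minus strand, because shelterin binds this repeat in tandem arrays.

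Pot1b TTAGGG: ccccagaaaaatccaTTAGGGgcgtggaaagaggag

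Both are matches of letters only, and the levels of Pot1b given above are those of the gene with this promoter. Of the other motifs searched on both strands, GGGCGG, the core of the Sp1 site, was found in 5 of the 7 genes (Terf2, Terf2ip, Pot1a, Pot1b and Tert) and in 35.7% of all windows, and CACGTG, the E-box bound by Myc and Max, in 0 of the 7 and in 7.15% of all windows. The counts are of genes with at least 1 window holding the motif, while the shares are of single windows, so that they are not in the same unit. Terf1 has no window in the table used.

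The balance of the pair leaned to Pot1a in every library. Pot1b took 18.3 to 24.3% of the counts of the pair. These counts are not corrected for length, and the union of exons is 8.67 kb for Pot1a and 5.27 kb for Pot1b. Per kb of it, the lean at 0 µM was smaller, with means of 4.80 CPM for Pot1a and 2.27 CPM for Pot1b. On the log2 scale, Pot1b over Pot1a counts gave −1.80 ± 0.244 at 0 µM (SD, n = 3), −1.98 ± 0.257 at 2 µM (n = 3) and −2.0 ± 0.0987 at 10 µM (n = 2). The difference from 0 µM was −0.18 at 2 µM (two-sided exact permutation p = 0.2) and −0.20 at 10 µM (exact p = 0.6), with an adjusted p of 0.72 for each over the 6 ratio comparisons made. All groups overlapped. Within the untreated group the first library, at −2.08, stood apart from −1.68 and −1.64, and without it the differences were −0.33 and −0.34.

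Telomerase reverse transcriptase was the least abundant of the 8 mRNAs. Tert (chr13:73626911-73649843, plus strand) had 21, 44 and 54 counts in the untreated libraries, 16, 18 and 35 counts at 2 µM, and 38 and 22 counts at 10 µM, all above the floor of 3 counts. This came to 2.18, 2.18 and 2.14 CPM at 0 µM, 1.41, 1.47 and 2.08 CPM at 2 µM, and 2.32 and 1.58 CPM at 10 µM. Every 2 µM library lay below every untreated one, the third by a small margin, and the 10 µM libraries lay on either side of the untreated range. The log2 fold change was −0.35 (SE 0.226, interval −0.85 to 0.14, adjusted p = 0.398) at 2 µM and −0.13 (SE 0.242, interval −0.66 to 0.40, adjusted p = 0.757) at 10 µM (edgeR). Without the third 2 µM library the value at 2 µM was −0.58, and the value at 10 µM was −0.48 without the first 10 µM library and 0.0711 without the second. With so few counts, a change in Tert of 1.5-fold downwards lies within the interval at both doses and was not resolved at this depth.

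The Tert promoter window held GGGCGG at 2 places, both on the template strand, so that they read CCGCCC on the coding strand. They are shown in capitals because Sp1 sites next to the start are known elements of the mouse Tert promoter, the first 46 to 51 bases before the start (chr13:73626845-73626880, plus strand) and the second 9 to 14 bases before it (chr13:73626882-73626910, plus strand).

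Tert far GC box: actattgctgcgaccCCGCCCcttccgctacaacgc

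Tert near GC box: tggtccgcctgaatcCCGCCCcttcctcc

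Among the genes for the rest of telomerase, calls were made between 2 and 10 µM. Of 12 genes for the telomerase RNA, its H/ACA proteins and its assembly factors, 0 were DEGs against 0 µM at either dose, and 2, Dkc1 and Nhp2, were lower at 10 than at 2 µM. Of all genes tested, 0.497% and 3.09% were DEGs at 2 and 10 against 0 µM, and 1.59% were DEGs lower at 10 than at 2 µM. At an adjusted p under 0.05 with no minimum fold change, 2 were higher at 2 µM, 1 was higher and 2 were lower at 10 µM, and 6 were lower in the last comparison, beside shares of all genes of 1.51% higher and 2.65% lower at 2 µM, 6.81% and 7.11% at 10 µM, and 11.5% and 11.9% between 10 and 2 µM. The median of the 12 log2 fold changes was 0.18, −0.11 and −0.29 for the 3 comparisons.

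Dkc1 encodes dyskerin, the pseudouridine synthase that binds the H/ACA end of the telomerase RNA and of small nucleolar RNAs. It was at 146, 135 and 135 CPM at 0 µM, 178, 172 and 168 CPM at 2 µM, and 117 and 111 CPM at 10 µM. The groups did not overlap in any comparison, with 2 µM the highest and 10 µM the lowest. Dkc1 differed from 0 µM by 0.32 on the log2 scale at 2 µM (SE 0.0666, adjusted p = 0.0277), by −0.28 at 10 µM (SE 0.0752, adjusted p = 0.0293), and by −0.60 between 10 and 2 µM (SE 0.0758, adjusted p = 0.000387). Nhp2, a core H/ACA protein, had the same order of doses, at 93.1, 78.3 and 79.6 CPM, 114, 106 and 107 CPM, and 66.3 and 74.9 CPM, with a log2 fold change of −0.63 between 10 and 2 µM (SE 0.0964, adjusted p = 0.00114). Against 0 µM, Nhp2 differed by 0.39 at 2 µM (SE 0.0845, adjusted p = 0.0310, edgeR). At 10 µM it differed by −0.24 (SE 0.0956, adjusted p = 0.120, edgeR), which did not pass 0.05. The 2 calls, of Dkc1 and Nhp2 between 10 and 2 µM, rest on folds close to 1.5. Under total-count scaling Dkc1 was at −0.47 and Nhp2 at −0.50, under the fold threshold, Dkc1 fell under it at −0.58 without the first 2 µM library, and Nhp2 reached an adjusted p of 0.0111 without the first 10 µM library.

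Among the other 10, Gar1 and Terc are named after their values were seen. Gar1, the H/ACA protein that joins the mature particle, was at 14.8, 18.3 and 21.3 CPM at 0 µM, 15.9, 17.2 and 18.7 CPM at 2 µM, and 12.2 and 9.21 CPM at 10 µM. Both 10 µM libraries were the lowest, with a log2 fold change of −0.78 against 0 µM (SE 0.164, adjusted p = 0.0105), which was past 0.05 but not past 0.01 (edgeR). It became a call in 4 of 16 alternative settings against 0 µM and in 4 of 16 against 2 µM. Naf1, Ruvbl1 and Ruvbl2, assembly factors of H/ACA particles, were lower at 10 than at 2 µM by that looser rule, with log2 fold changes of −0.38, −0.39 and −0.32.

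Terc, the telomerase RNA (chr3:96414437-96414859, minus strand), was at 8.51, 6.19 and 7.58 CPM at 0 µM, 8.55, 7.26 and 8.68 CPM at 2 µM, and 10.1 and 10.6 CPM at 10 µM. It was highest in both 10 µM libraries, where Dkc1, Nhp2 and Gar1 were lowest. Against 0 µM it differed by 0.51 on the log2 scale at 10 µM (SE 0.147, adjusted p = 0.0411, edgeR), and it stayed past 0.05 in 5 of 16 alternative settings. A stretch near the start of the 423-base RNA is shown for its template, CTAACCC in capitals at bases 29 to 35, which is the complement of the TTAGGG repeat that telomerase adds.

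Terc template: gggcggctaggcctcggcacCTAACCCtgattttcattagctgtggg

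**Figure D4:**
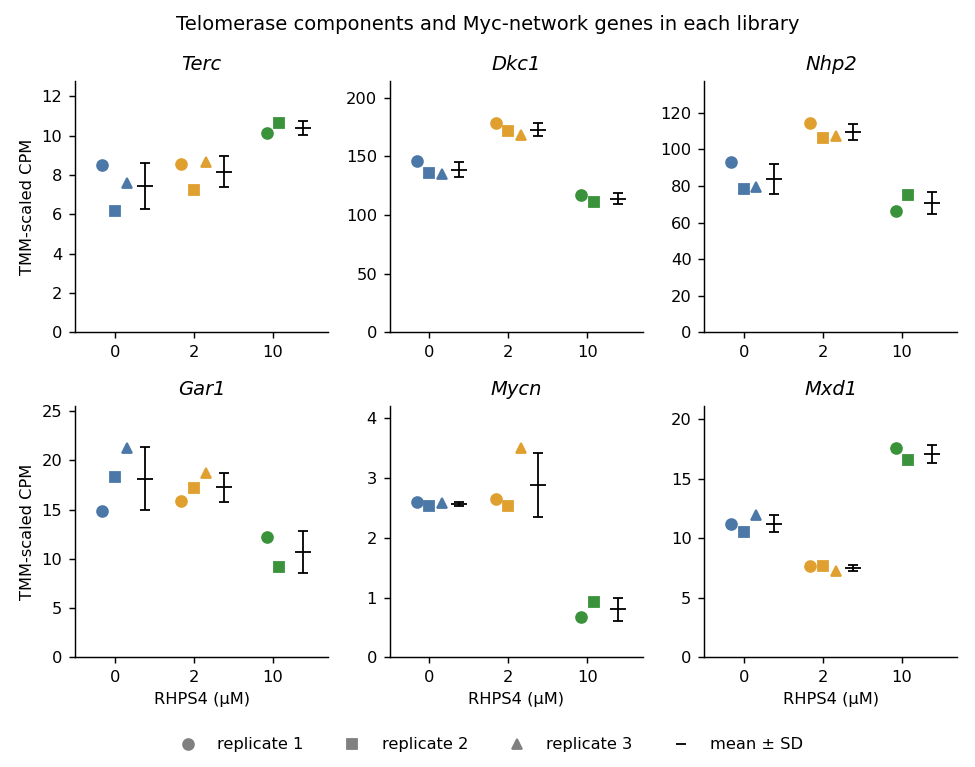
TMM-scaled CPM (y axis, from 0) of 4 telomerase components and 2 genes of the Myc network by RHPS4 dose in µM (x axis), with a symbol for each library and bars for the mean ± SD of 3, 3 and 2 libraries. Dkc1 and Nhp2 peak at 2 µM, Terc and Mxd1 are highest at 10 µM, and Gar1 and Mycn are lowest there.

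CST, the complex of CTC1, STN1 and TEN1 that fills in the C-rich strand after telomerase has acted, showed no called gene among 3. The share of DEGs over all genes was 0.497% and 3.09% at 2 and 10 against 0 µM, and 5.51% for 10 against 2 µM. Ctc1 was at 49.0, 53.4 and 59.0 CPM at 0 µM, 44.0, 49.5 and 42.0 CPM at 2 µM, and 55.5 and 43.2 CPM at 10 µM, with a log2 fold change of −0.26 at 2 µM (SE 0.109, adjusted p = 0.201). Stn1, listed as Obfc1, ran from 36.4 to 40.4 CPM and Ten1 from 8.74 to 11.2 CPM over all libraries, and their log2 fold changes stayed between −0.13 and 0.10.

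Of 16 proteins known to modify shelterin or to process telomeric DNA, 0 were DEGs against 0 µM, and 1, the flap endonuclease Fen1, was lower at 10 than at 2 µM. Of all genes tested, 0.497% and 3.09% were DEGs at 2 and 10 against 0 µM, and 1.59% were DEGs lower at 10 than at 2 µM. Fen1 was at 106, 87.8 and 92.6 CPM at 0 µM, 112, 120 and 107 CPM at 2 µM, and 65.1 and 69.6 CPM at 10 µM, with a log2 fold change of −0.75 (SE 0.0973, adjusted p = 0.000461), and it was called in all 16 alternative settings. At 10 against 0 µM Fen1 was lower too, by −0.50 (SE 0.0967, adjusted p = 0.00667, edgeR), which is under 1.5-fold. At an adjusted p under 0.05, 0 passed at 2 µM, 2 were higher and 2 lower at 10 µM, and 1 was higher and 4 were lower between 10 and 2 µM, beside shares of all genes of 1.51% higher and 2.65% lower, 6.81% and 7.11%, and 11.5% and 11.9% in the same order. The helicase gene Rtel1, the telomerase inhibitor gene Pinx1 and the nuclease scaffold gene Slx4 were lower by this rule in the last comparison beside Fen1 (−0.40, −0.50 and −0.45), and the helicase gene Wrn was higher (0.26). The tankyrase genes Tnks and Tnks2, whose products release TRF1 from telomeres, passed in no comparison.

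Of 16 genes for the signalling of unprotected chromosome ends, 0 were DEGs against 0 µM, and 1, H2afx, encoding the histone H2AX, was lower at 10 than at 2 µM. The shares of all genes were 0.497% and 3.09% called at 2 and 10 against 0 µM, and 1.59% called lower at 10 than at 2 µM. H2afx was at 281, 287 and 294 CPM at 0 µM, 316, 313 and 301 CPM at 2 µM, and 217 and 183 CPM at 10 µM, with a log2 fold change of −0.63 (SE 0.0853, adjusted p = 0.000574) between 10 and 2 µM, falling under 1.5-fold at −0.55 without the second 10 µM library and at −0.49 with total counts alone. At 10 against 0 µM H2afx was lower too, by −0.52 (SE 0.0850, adjusted p = 0.00272, edgeR), which is under 1.5-fold. At an adjusted p under 0.05, 1 of the 16 was higher at 2 µM, 1 was higher and 1 lower at 10 µM, and 1 was higher and 4 were lower between 10 and 2 µM. By this rule 1.51% of all genes were higher at 2 µM, 6.81% higher and 7.11% lower at 10 µM, and 11.5% higher and 11.9% lower in the last comparison, so that 1 of 16 in each direction at 10 µM stands at the background share. Atr, the kinase that POT1 holds back, was higher at 10 than at 0 µM by 0.36 on the log2 scale (SE 0.0748, adjusted p = 0.0102), under 1.5-fold. Atm, the kinase that TRF2 holds back, passed in no comparison.

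Of 11 regulators of Tert transcription, 10 were tested, Wt1 being left out with at most 12 counts in a library. Mycn, a Myc-family activator, was lower and Mxd1, a repressor that competes for Max, was higher at 10 µM, both DEGs against 0 and against 2 µM. Over all genes, 1.95% were called higher and 1.14% lower at 10 against 0 µM, and 3.92% and 1.59% at 10 against 2 µM. At an adjusted p under 0.05, 1 of the 10 was lower at 2 µM, where 2.65% of all genes were. In each comparison with 10 µM, 1 was higher and 2 were lower, Men1 beside Mycn (−0.37 and −0.35). Shares of all genes were 6.81% and 7.11% against 0 µM, and 11.5% and 11.9% against 2 µM. Mycn was at 2.59, 2.53 and 2.58 CPM at 0 µM, 2.64, 2.53 and 3.51 CPM at 2 µM, and 0.672 and 0.935 CPM at 10 µM, where it had 11 and 13 counts. Its log2 fold change was −1.68 against 0 µM (SE 0.270, adjusted p = 0.00249) and −1.88 against 2 µM (SE 0.272, adjusted p = 0.000834). Mxd1 was at 11.2, 10.5 and 11.9 CPM, 7.67, 7.66 and 7.25 CPM, and 17.6 and 16.5 CPM, lowest at 2 µM and highest at 10 µM in every library. Its log2 fold change was −0.58 at 2 µM (SE 0.105, adjusted p = 0.0152), 0.60 at 10 µM (SE 0.105, adjusted p = 0.0038) and 1.18 between 10 and 2 µM (SE 0.111, adjusted p = 4.55e-05). Against 0 µM, Mycn was called in 11 of 16 alternative settings and lost without either 10 µM library or without the second or the third 0 µM one (adjusted p = 0.0102 to 0.0270), or when replicate numbers were blocked (edgeR adjusted p = 0.0123), while Mxd1 was called in 5 of 16 and lost with the block too (adjusted p = 0.0137). Against 2 µM, Mycn reached an adjusted p of 0.0108 without the first 10 µM library, and Mxd1 was called in all 16. Myc itself was at 26.2 to 39.3 CPM at 0 µM and 33.0 to 42.9 CPM at 10 µM, with a log2 fold change of 0.15 (SE 0.176, adjusted p = 0.608). Beside these, Tert itself passed in no comparison.

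Proliferation genes were lowest at 10 µM as well. Their summed level over 10 genes was 4140 to 4552 CPM at 0 µM, 4495 to 4715 CPM at 2 µM and 3560 to 3615 CPM at 10 µM. At an adjusted p under 0.05, 0 of the 10 passed at 2 µM, 4 were lower at 10 µM, where 7.11% of all genes were lower, and 9 were lower between 10 and 2 µM, where 11.9% were. Of the 10, 1, the replicative helicase gene Mcm5, was a DEG in the last comparison (−0.66, SE 0.10, adjusted p = 0.00108), though not with total counts alone (−0.53) or without the first 10 µM library (adjusted p = 0.0101). Of all genes tested, 1.59% were DEGs lower at 10 than at 2 µM. The part of cell division in the levels of Dkc1, Nhp2, Fen1 and H2afx was not tested.

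**Figure D5:**
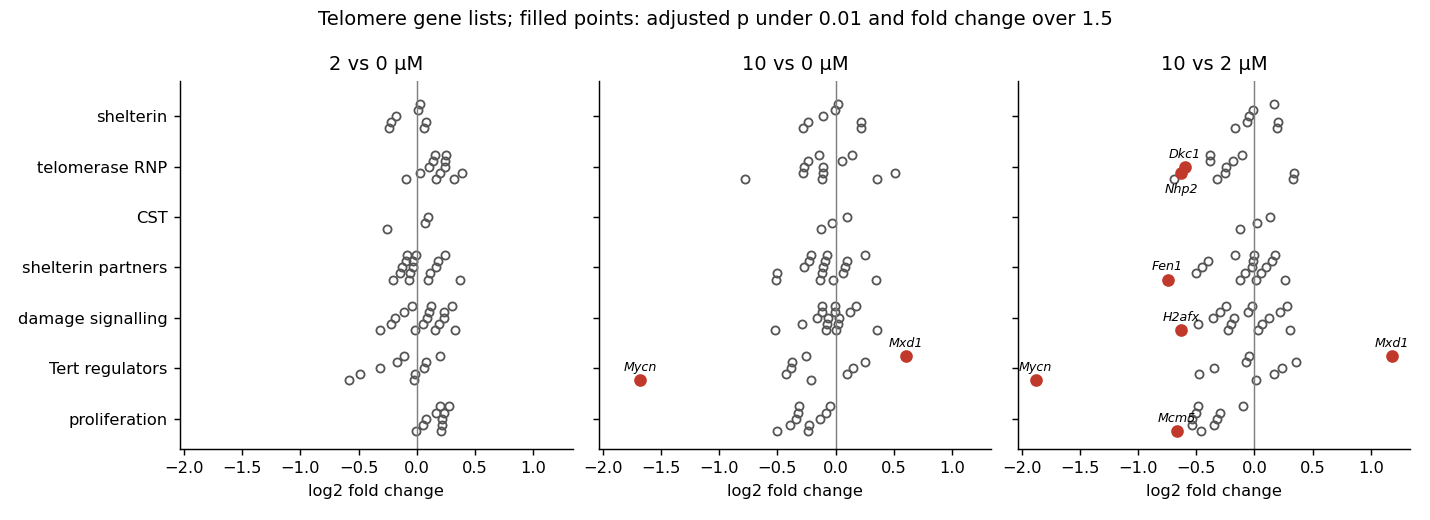
Log2 fold change (x axis, the same in all panels) of every tested gene in 7 telomere-related lists (y axis) for the 3 comparisons, with open points for genes not called and filled, named points for adjusted p under 0.01 and fold change over 1.5. No shelterin gene is filled in any panel, no gene at all is filled for 2 against 0 µM, and most filled points lie in the panel for 10 against 2 µM.

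For each of the 8 genes, the nearest patterns over the 8 libraries were sought among tested genes with a mean of at least 50 counts, by Pearson's r of the log2 CPM, as a description over libraries that share depth and dose. Terf1 was closest to Chd8 (r = 0.971) and Apbb1ip (0.970), Terf2 to Cggbp1 (0.974) and Zkscan17 (0.971), Terf2ip to Ndufb4 (0.982) and Etfb (0.971), and Tinf2 to H2-Ke6 (0.978) and Ppcdc (0.970). Pot1a was closest to Fut10 (0.989) and 4933434E20Rik (0.984), Pot1b to Cep112 (0.978) and Tpt1 (0.972), Acd to Ptprn (0.947) and Ctc1 (0.926), and Tert to Figf (0.934) and Ebpl (0.931). None of these 16 nearest genes was itself a shelterin gene, since the 8 were left out, and 1 of the 16, Ctc1, came from the telomere lists. How high r would be for any other gene searched in this way was not examined.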

How the data were processed

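RNA-Seq counts of 8 MEF libraries were used. Per the labels, the authors trimmed the reads with Trim Galore and cutadapt and aligned them to mm10 with STAR 2.5.2a. They deposited raw counts of uniquely mapped fragments per gene from featureCounts, whose version, annotation and strand setting are not given in the sources used here. The tests were run with edgeR 4.0.16 under R 4.3.3. TMM scaling and filterByExpr left 14296 genes for the quasi-likelihood test (glmQLFit, glmQLFTest), with Benjamini-Hochberg adjustment over them, a dose factor for all 8 libraries and the study's thresholds. DESeq2 1.42.0, other scalings and filters, the replicate number as a block and fits lacking 1 library were alternatives. SEs are the log2 fold change over the square root of F. Ratios used 0.5 added to each count and exact permutation tests. Gene positions and lengths came from GENCODE vM21 (GRCm38), which 23376 of the 24460 symbols matched, and promoters from RefSeq, using Python 3.11.15. Floors cover counting error only. Chi-square per degree of freedom was 3.76 for the closest libraries, above sampling noise. That excess does not show separate cultures, and each library was treated as a replicate. The script was tested on simulated data. The members and lists were chosen with earlier results of these data known. Named were the 8 genes, every called gene of the lists (or the 2 with the smallest p in each comparison) and the 2 nearest patterns of each of the 8. Other list genes were named after their values were seen.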

Additional observations from a re-analysis of the deposited data

How the results depend on the processing

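The count of called genes among the 8 was 0 in all 3 comparisons under each of 17 alternatives (16 settings of the fit and the call rule without a minimum fold change), including 0 to 0 with each library left out. Of 384 alternative log2 fold changes of the 8 genes, 24 changed sign, none was called, and 4 had an adjusted p under 0.05, all with total counts alone (Pot1a and Tinf2 at 10 µM). Of 960 for all named genes, 887 kept direction and side of the threshold, 38 changed sign, 25 lost a call and 10 gained one. With total counts alone the sign changed at 10 against 0 µM for Terf2 (0.11), Pot1b (0.21), Tert (0.0778), Ctc1 (0.0873) and Obfc1 (0.182), and at 10 against 2 µM for Terf1 (0.0907), Terf2ip (0.0748), Acd (0.123) and Obfc1 (0.0082), while Terc at 10 µM reached 0.72 (adjusted p = 0.00401) and became a call. Terf2ip at 10 against 0 µM was −0.0195 with no filter and −0.0173 with DESeq2, and Ten1 at 10 against 2 µM was −0.0189 and −0.017. Gar1 became a call at 10 against 0 µM with RLE (−0.80), with no filter (−0.82), with DESeq2 (−0.81) and without the first 0 µM library (−0.91), and at 10 against 2 µM with no filter (−0.73), with DESeq2 (−0.73), with only the 2 groups compared (−0.69) and without the first 0 µM library (−0.72). The cause of these differences was not tested. Whether the replicate numbers pair the libraries is not settled. The deviations of equal numbers at 0 and 2 µM correlated at 0.199, 0.0845 and 0.161, and those of unequal numbers at −0.154 to 0.0584. With 10 µM, equal numbers gave −0.145 to −0.0212. There 2 libraries deviate from their mean in mirror image, so that these values cannot decide it. With the replicate number as a block the sign changed for Terf1 at 10 against 2 µM (0.17), Pot1b at 10 against 0 µM (0.10), Ten1 at 10 against 2 µM (−0.0397) and the log2 ratio of Pot1b to Pot1a at 10 against 2 µM (0.13), and the calls of Mycn (−1.58, adjusted p = 0.0123) and Mxd1 (0.62, adjusted p = 0.0137) at 10 against 0 µM were lost. With one library left out, the log2 ratio of Pot1b to Pot1a ran from −0.33 to −0.09 at 2 µM, −0.34 to −0.12 at 10 µM and −0.10 to 0.13 between 10 and 2 µM, and that of Terf1 to Terf2 from −0.50 to −0.22, −0.37 to 0.0949 and −0.0432 to 0.42. Ranges for single genes whose sign changed were −0.16 to 0.18 (Terf1, 10 against 2 µM), −0.0146 to 0.13 and −0.39 to 0.0681 (Terf2, 2 and 10 against 0 µM), −0.00277 to 0.17 and −0.0988 to 0.0795 (Terf2ip), −0.0315 to 0.0706 (Pot1a, 2 µM), −0.0941 to 0.0801 (Pot1b, 10 µM), −0.25 to 0.12 (Acd, 10 against 2 µM), −0.0195 to 0.073 (Tinf2, 2 µM), −0.48 to 0.0711 and −0.14 to 0.43 (Tert, 10 against 0 and 2 µM), −0.35 to 0.0111 and −0.10 to 0.26 (Ctc1), −0.0199 to 0.18 and −0.0961 to 0.12 (Ten1, 2 against 0 and 10 against 2 µM) and −0.19 to 0.0445 (Gar1, 2 µM). With the longest transcript as length, the places were 1 for Pot1a, 2 for Tinf2, 3 for Terf2, 4 for Terf2ip, 5 for Terf1 and 6 for Acd, and without the first 0 µM library, an alternative chosen after seeing the data, Terf2ip and Acd exchanged the places 2 and 3.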
